A study of Chlorocebus aethiops with 12 samples.

Results

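Circadian clock transcripts were followed in COS-1 cells given dexamethasone, and 9 of 10 clock gene records could be read: PER1, PER2, PER3, CRY1, CRY2, NR1D1, NR1D2, DBP and BHLHE40. The 10 records were chosen by their RefSeq identifiers, among 32379 record identifiers on the array, and the record of ARNTL (NM_001178) was carried by no probe. The 9 others had 17 probes, and 16 of these were tested, because each array of 1 or more groups measured them well above background. PER1 (NM_002616) rose in both receptor mutants, by 1.87-fold and 2.08-fold. BHLHE40 (NM_003670) fell by an inverse fold of 1.81 and 1.67, and NR1D1 (NM_021724) by an inverse fold of 1.39 and 1.41.

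COS-1 is a kidney cell line of the African green monkey, transformed with SV40 and used mainly because it takes up and expresses plasmids well. By the sample descriptions, all 12 samples came from cells transiently transfected with mouse CCRP carrying a V5 tag (mCCRP-V5), a co-chaperone of nuclear receptors. The same cells received the human glucocorticoid receptor carrying a FLAG tag (FLAG-hGR). The receptor was the mutant Y30F, with phenylalanine in place of a tyrosine near the N terminus, or Y30E, with glutamate there. Treatment began 40 h after transfection and lasted 6 h, with the synthetic glucocorticoid dexamethasone at 100 nM or with its vehicle, 0.1% DMSO. The 4 groups (Y30F-DMSO, Y30F-DEX, Y30E-DMSO and Y30E-DEX) had 3 arrays each. The series title sets receptors whose N and C termini interact against receptors whose termini do not, and the labels do not say which mutant is which. By these descriptions no group had wild-type receptor, no receptor or no CCRP, so every comparison is between cultures given as transfected with both plasmids. Another label gives only mCCRP-V5 for Y30F and only FLAG-hGR for Y30E. Were that label right, construct and mutant could not be told apart. Transient transfection leaves some cells without plasmid, and each value is an average over all cells of a culture, so that fewer responding cells and less RNA per cell cannot be told apart. The labels do not say whether the 3 replicates were separate cultures. The p-values therefore rest on array-to-array spread that may be purely technical.

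The mammalian clock is a transcriptional loop. ARNTL (also called BMAL1) pairs with CLOCK, and the pair activates genes with E-box elements, among them the period genes, the cryptochrome genes, NR1D1, NR1D2, DBP and BHLHE40. PER and CRY proteins then enter the nucleus and inhibit the pair, while the nuclear receptors REV-ERB alpha and beta, encoded by NR1D1 and NR1D2, repress ARNTL. Glucocorticoids are a known timing signal for peripheral clocks, kidney included. PER1 is a known direct target of the glucocorticoid receptor, and dexamethasone is widely used to synchronise cultured cells.

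Levels are given as the log2 signal of a probe minus the 75th percentile of its array, so that a level of 0 is the signal at that percentile (706 to 876 across the arrays) and a difference of 1 is a 2-fold difference. Between 60.5% and 67.0% of the spots of an array were well above background, and no spot was saturated. Human probes were hybridised with monkey RNA here, so a probe was compared only with itself. The 12 arrays lay on 3 slides. All Y30F-DMSO arrays shared slide 1 with Y30F-DEX replicate 1, and all Y30E-DEX arrays shared slide 3 with Y30E-DMSO replicate 3. Slide 2 carried the rest, which were replicates 2 and 3 of Y30F-DEX together with replicates 1 and 2 of Y30E-DMSO. The effects were therefore also fitted with slide as a block, which for Y30F gives the difference within slide 1 and for Y30E the difference within slide 3. In the block fit the Y30F effect thus sets 1 Y30F-DEX array against 3 DMSO arrays, and the Y30E effect sets 3 dexamethasone arrays against 1 Y30E-DMSO array. The spread behind these values comes from the other arrays of the fit, and the lone array is assumed to vary as they do. Adjusted p-values are from limma with Benjamini-Hochberg adjustment over 25570 probes, and a change past 0.05 is called higher or lower.

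Of the 16 clock probes, 1 was called higher and 3 lower after dexamethasone in Y30F, where 1.27% of all tested probes were called higher and 0.375% lower. In Y30E, 3 were higher and 3 lower, where 1.39% and 0.591% of all probes were called. In the mean of both effects, which rests on all 12 arrays, 4 were higher and 5 lower, where 2.51% and 1.06% of all probes were called. By gene, each represented by its brightest tested probe, PER1, PER2 and CRY2 rose in this mean, PER3, NR1D1, NR1D2 and BHLHE40 fell, and CRY1 and DBP did not pass. The median size of the mean effect was 0.23 (log2) over the clock probes and 0.056 over all tested probes, with signed medians of -0.14 and 0.011. With slide as a block, 1 clock probe was higher and 3 were lower in the mean effect, where 1.14% and 0.602% of all probes were called. The members were chosen with earlier results of these data known, so these shares and medians over all probes do not test the set.

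**Figure D1:**
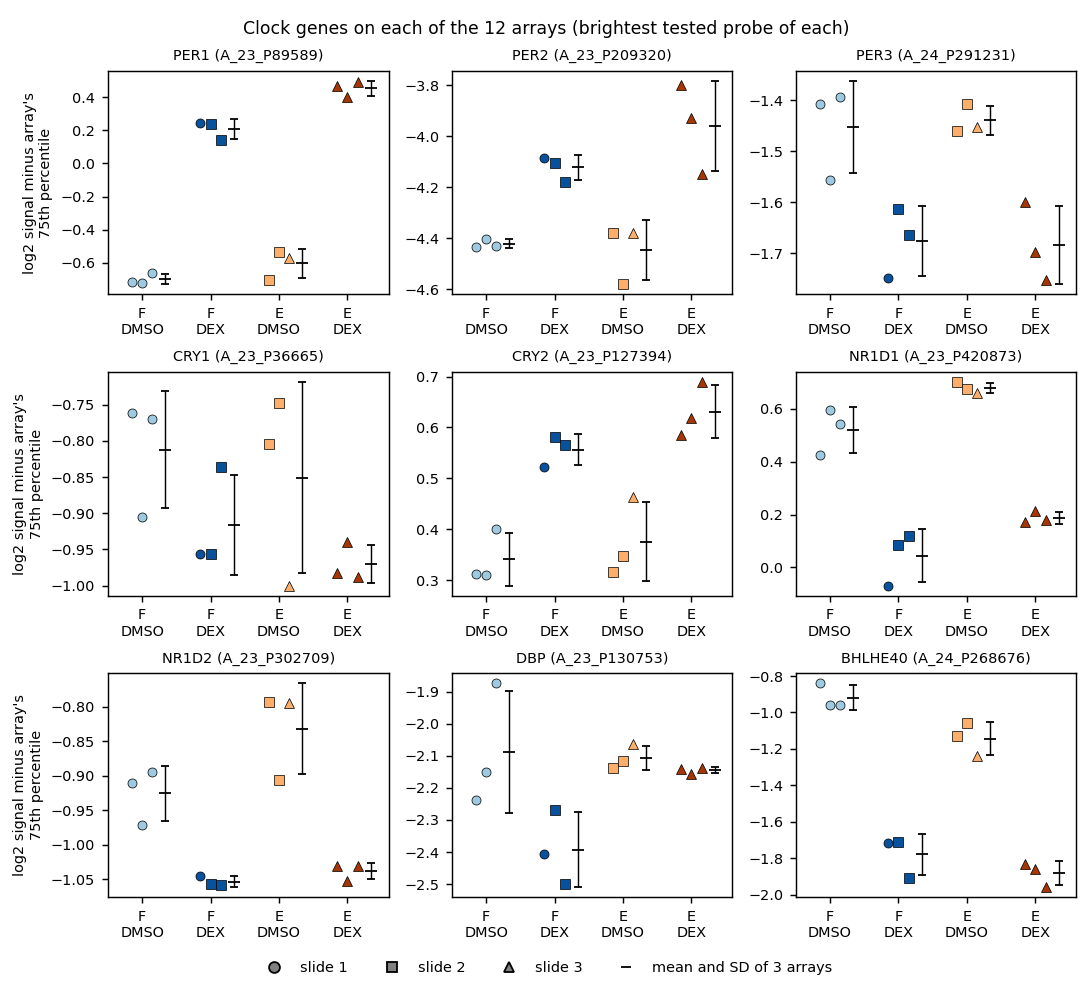
Level of the brightest tested probe of each of the 9 clock genes on each of the 12 arrays (y axis: log2 signal minus the array's 75th percentile, with a scale of its own in each panel; x axis: the 4 groups, F for Y30F and E for Y30E). Points are arrays, shaped by slide, and bars give the mean and SD of 3 arrays; PER1 lies between -0.72 and -0.54 on all 6 DMSO arrays and between 0.14 and 0.49 on all 6 dexamethasone arrays.

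The period genes encode the PER proteins, the inhibitory arm of the loop. PER1, measured by the probe A_23_P89589, stood at -0.71, -0.72 and -0.66 on the Y30F-DMSO arrays and at 0.24, 0.24 and 0.14 on the Y30F-DEX arrays. In Y30E the levels were -0.71, -0.54 and -0.57 under DMSO and 0.47, 0.40 and 0.49 under dexamethasone. All 6 dexamethasone arrays were higher than all 6 DMSO arrays, with no overlap. The mean processed signal of PER1 went from 518 ± 31.5 to 939 ± 54.6 in Y30F and from 519 ± 47.1 to 1090 ± 31.6 in Y30E (SD, n = 3). Each dexamethasone array was between 1.79-fold and 2.14-fold above the mean of its own mutant's DMSO arrays.

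The increase of PER1 was 0.91 ± 0.056 (log2 ± SE) in Y30F, with an adjusted p of 3.44e-05 in limma. In Y30E it was 1.06 ± 0.056, with an adjusted p of 7.65e-06 in limma. The mean of both was 0.98 (95% confidence interval 0.89 to 1.07, adjusted p = 4.85e-07 in limma), the 52nd highest of 25570. PER1 kept its call with slide as a block, at 0.94 in Y30F (adjusted p = 0.00476), 1.02 in Y30E (adjusted p = 0.00116) and 0.98 in the mean (adjusted p = 0.000211, limma). In these block fits 0.469% of all probes were called higher in Y30F and 0.481% in Y30E. The order of PER1 levels was Y30E-DEX, Y30F-DEX, Y30E-DMSO and Y30F-DMSO. The gap between the dexamethasone groups was 0.25 and that between the DMSO groups 0.095, and neither passed the test (adjusted p = 0.196 and 0.512 in limma).

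PER2 (NM_022817) gave dim signals. Its brighter probe, A_23_P209320, stood at -4.44, -4.40 and -4.43 on the Y30F-DMSO arrays and at -4.09, -4.10 and -4.18 on the Y30F-DEX arrays. In Y30E it stood at -4.38, -4.58 and -4.38 under DMSO and at -3.80, -3.93 and -4.15 under dexamethasone. In each mutant the dexamethasone arrays were all above the DMSO arrays, and the 6 were between 1.18-fold and 1.56-fold above their mutant's DMSO mean.

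The effect on PER2 was 0.30 ± 0.087 in Y30F (adjusted p = 0.157) and 0.49 ± 0.087 in Y30E (adjusted p = 0.0178 in limma), so PER2 passed the test in Y30E. Its mean effect was 0.39, a 1.31-fold increase (95% confidence interval 0.26 to 0.53, adjusted p = 0.0046 in limma). Both calls were lost with slide as a block, which gave 0.42 in Y30E (adjusted p = 0.344) and 0.38 in the mean (adjusted p = 0.103), beside 0.34 in Y30F (adjusted p = 0.43). With normexp background correction, whose offset shrinks the log2 changes of dim probes, the values were 0.16 in Y30E and 0.15 in the mean. In Y30F the value was 0.14 with normexp, and it also shrank without an offset. It was 0.085 with quantile normalization and 0.17 with median centring (adjusted p = 0.821 and 0.366 in limma). The Y30E call, lost in 11 of 25 alternatives, was also lost without Y30E-DMSO replicate 1 or 2, or without Y30E-DEX replicate 1 or 2, with adjusted p-values of 0.0538 to 0.0771 in limma. The other PER2 probe, A_23_P411162, was near background, with signals from 15.4 to 108, and was well above it on 1, 2, 3 and 3 arrays of Y30F-DMSO, Y30F-DEX, Y30E-DMSO and Y30E-DEX. Its mean effect of 0.32 had a standard error of 0.5 and gave no call.

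PER3 (NM_016831) did not follow PER1 and PER2. Its brightest probe, A_24_P291231, stood at -1.41, -1.56 and -1.39 on the Y30F-DMSO arrays and at -1.75, -1.61 and -1.66 on the Y30F-DEX arrays. In Y30E it stood at -1.46, -1.41 and -1.45 under DMSO and at -1.60, -1.70 and -1.75 under dexamethasone. All 6 dexamethasone arrays were lower than all 6 DMSO arrays, by an inverse fold of 1.12 to 1.24 against their mutant's DMSO mean. The effects of -0.22 in Y30F and -0.24 in Y30E did not pass the test (adjusted p = 0.139 and 0.094 in limma). Their mean of -0.23 ± 0.044 did, as a decrease (adjusted p = 0.0147 in limma), and the call was lost with slide as a block (-0.26, adjusted p = 0.106, with -0.30 in Y30F and -0.23 in Y30E). Neither dimmer PER3 probe passed. The probe A_24_P230948 gave opposite signs in the mutants, at 0.17 ± 0.248 in Y30F and -0.60 ± 0.248 in Y30E, and a mean of 0.021 in the block fit. The probe A_23_P201461 gave -0.20 and -0.25, with a mean of -0.23 ± 0.095 and of -0.29 in the block fit.

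The cryptochromes are the partners of the PER proteins in inhibiting the CLOCK and ARNTL pair. CRY2 (NM_021117) was read best by the probe A_23_P127394, at 0.31, 0.31 and 0.40 on the Y30F-DMSO arrays and 0.52, 0.58 and 0.57 on the Y30F-DEX arrays. In Y30E the levels were 0.32, 0.35 and 0.46 under DMSO and 0.59, 0.62 and 0.69 under dexamethasone. The groups did not overlap in either mutant, and the dexamethasone arrays were 1.13-fold to 1.24-fold above their DMSO means. The effect on CRY2 was 0.22 in Y30F (adjusted p = 0.0987) and 0.26 ± 0.054 in Y30E (adjusted p = 0.0429 in limma). The mean effect was 0.24 ± 0.038, a 1.18-fold increase (adjusted p = 0.00589 in limma).

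The Y30E call of CRY2 was lost when any of 11 of the 12 arrays was left out, the exception being Y30E-DMSO replicate 3 (adjusted p = 0.0523 to 0.195 over those 11, with values of 0.23 to 0.28). The block fit gave 0.18 in Y30F (adjusted p = 0.457), 0.17 in Y30E (adjusted p = 0.652) and 0.18 in the mean (adjusted p = 0.196), so neither CRY2 call held within slides. A second CRY2 probe, A_24_P158587, rose by 0.24 ± 0.056 in the mean (adjusted p = 0.0448 in limma). That call was lost in the block fit (0.24, adjusted p = 0.232) and without any of 10 of the 12 arrays, the exceptions being Y30F-DMSO replicate 2 and Y30F-DEX replicate 1 (adjusted p = 0.0527 to 0.108). In Y30F alone this probe did not pass at 0.32 (adjusted p = 0.095) and did without Y30F-DEX replicate 1, at 0.37 (adjusted p = 0.0373 in limma). The dimmest CRY2 probe, A_23_P388027, was not tested. It was well above background on 2, 0, 1 and 1 arrays of Y30F-DMSO, Y30F-DEX, Y30E-DMSO and Y30E-DEX.

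CRY1 (NM_004075) showed no call in any comparison. The probe A_23_P36665 stood at -0.76, -0.91 and -0.77 on the Y30F-DMSO arrays, and at -0.96, -0.96 and -0.84 on the Y30F-DEX arrays. In Y30E it stood at -0.81, -0.75 and -1 under DMSO and at -0.98, -0.94 and -0.99 under dexamethasone. The groups overlapped in both mutants. The mean effect was -0.11, with a 95% confidence interval of -0.23 to 0.001 (adjusted p = 0.368 in limma), and the dimmer probe A_24_P407235 gave -0.09 (-0.23 to 0.049). With slide as a block the values of A_23_P36665 were -0.15 in Y30F and 0.03 in Y30E, a change of sign in Y30E, and neither passed (adjusted p = 0.656 and 0.992). For the mean effect, the intervals without a block leave room for a decrease of up to 0.23 (log2) and hold no increase above 0.049. In each mutant alone they were wider, reaching -0.31 in Y30F and 0.13 in Y30E, both for A_24_P407235.

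The REV-ERB receptors repress ARNTL and other genes with ROR elements. NR1D1, which encodes REV-ERB alpha, was measured by the probe A_23_P420873 at 0.42, 0.60 and 0.54 on the Y30F-DMSO arrays and at -0.07, 0.085 and 0.12 on the Y30F-DEX arrays. In Y30E the levels were 0.70, 0.68 and 0.66 under DMSO and 0.17, 0.21 and 0.18 under dexamethasone. All 6 dexamethasone arrays were lower than all 6 DMSO arrays. Each was below its mutant's DMSO mean by an inverse fold of 1.32 to 1.5.

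NR1D1 changed by -0.48 ± 0.061 in Y30F (adjusted p = 0.00274) and by -0.49 ± 0.061 in Y30E (adjusted p = 0.00205 in limma). Its mean effect was -0.48, with a 95% confidence interval of -0.58 to -0.39 and an adjusted p of 0.000101 in limma, the 110th lowest of 25570. The decrease kept its call with slide as a block, at -0.59 in Y30F (adjusted p = 0.0181), -0.47 in Y30E (adjusted p = 0.0375) and -0.53 in the mean (adjusted p = 0.00213 in limma). In the block fits 0.117% of all probes were called lower in Y30F and 0.415% in Y30E. Without slide 2 the calls of this probe in each mutant were lost (adjusted p = 0.0951 in Y30F and 0.146 in Y30E), and with the Y30F groups fitted alone the Y30F call was (adjusted p = 0.0769, limma). The dimmer probe of NR1D1, A_24_P250227, fell as well, by a mean effect of -0.36 ± 0.041 (adjusted p = 0.000637), and by -0.33 in the block fit (adjusted p = 0.0406 in limma). Its calls in each mutant alone (-0.38, adjusted p = 0.00855 in Y30F, and -0.34, adjusted p = 0.0158 in Y30E) were lost in the block fit (adjusted p = 0.194 and 0.261). The Y30E call of that probe was also lost without Y30E-DMSO replicate 1 or 2 or any of the Y30E-DEX replicates (adjusted p = 0.0514 to 0.08).

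NR1D2 (NM_005126), which encodes REV-ERB beta, moved less. Its probe A_23_P302709 stood at -0.91, -0.97 and -0.90 on the Y30F-DMSO arrays and at -1.05, -1.06 and -1.06 on the Y30F-DEX arrays. In Y30E it stood at -0.79, -0.91 and -0.80 under DMSO and at -1.03, -1.05 and -1.03 under dexamethasone. The groups did not overlap in either mutant, and the dexamethasone arrays were below their DMSO means by an inverse fold of 1.09 to 1.17.

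Neither mutant alone gave a call for NR1D2 (-0.13, adjusted p = 0.269 in Y30F, and -0.21, adjusted p = 0.0536 in Y30E). The mean effect of -0.17 ± 0.032 passed as a decrease (adjusted p = 0.0171 in limma). It was lost with slide as a block (-0.18, adjusted p = 0.167, with -0.12 in Y30F and -0.24 in Y30E), with normexp correction (-0.079, adjusted p = 0.492), and without Y30F-DEX replicate 3 or Y30E-DMSO replicate 1 (-0.17, adjusted p = 0.0542, and -0.16, adjusted p = 0.0584, limma). The dimmer NR1D2 probe, A_24_P943472, did not show it, with a mean effect of 0.031 and a 95% confidence interval of -0.17 to 0.23.

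BHLHE40, also known as DEC1, encodes a repressor that binds the same E-box elements as the CLOCK and ARNTL pair. Its probe A_24_P268676 stood at -0.84, -0.96 and -0.96 on the Y30F-DMSO arrays and at -1.72, -1.71 and -1.91 on the Y30F-DEX arrays. In Y30E it stood at -1.13, -1.06 and -1.24 under DMSO and at -1.83, -1.86 and -1.96 under dexamethasone. All 6 dexamethasone arrays were lower than all 6 DMSO arrays, by an inverse fold of 1.61 to 1.98 against their mutant's DMSO mean. The mean processed signal of BHLHE40 went from 444 ± 22.9 to 237 ± 15.7 in Y30F and from 356 ± 16 to 217 ± 18.9 in Y30E (SD, n = 3).

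The effect on BHLHE40 was -0.86 ± 0.072 in Y30F (adjusted p = 0.000226) and -0.74 ± 0.072 in Y30E (adjusted p = 0.000508 in limma). The mean effect was -0.80, with a 95% confidence interval of -0.91 to -0.69 and an adjusted p of 1.22e-05 in limma, which was the 20th lowest of 25570. With slide as a block the decrease of BHLHE40 kept its calls, at -0.80 in Y30F (adjusted p = 0.0122), -0.64 in Y30E (adjusted p = 0.0254) and -0.72 in the mean (adjusted p = 0.00144 in limma). Without slide 2, which leaves 1 array in Y30F-DEX and in Y30E-DMSO, the Y30E effect of -0.64 missed the threshold (adjusted p = 0.0613).

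DBP (NM_001352) is an activator at D-box elements and a classical output of the loop. Its probe A_23_P130753 stood at -2.24, -2.15 and -1.87 on the Y30F-DMSO arrays and at -2.41, -2.27 and -2.50 on the Y30F-DEX arrays. In Y30E it stood at -2.14, -2.12 and -2.06 under DMSO and at -2.14, -2.16 and -2.14 under dexamethasone. The groups did not overlap in Y30F, where 15.3% of all probes with arrays to compare did not either. They overlapped in Y30E, where 22.3% of all such probes did not. The effects were -0.31 ± 0.089 in Y30F (adjusted p = 0.163) and -0.039 ± 0.089 in Y30E (adjusted p = 0.898), and their mean of -0.17 (95% confidence interval -0.31 to -0.032) did not pass either (adjusted p = 0.232 in limma). The block fit gave -0.32 in Y30F, -0.081 in Y30E and -0.20 in the mean for DBP, with no call (adjusted p = 0.487, 0.975 and 0.453).

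**Figure D2:**
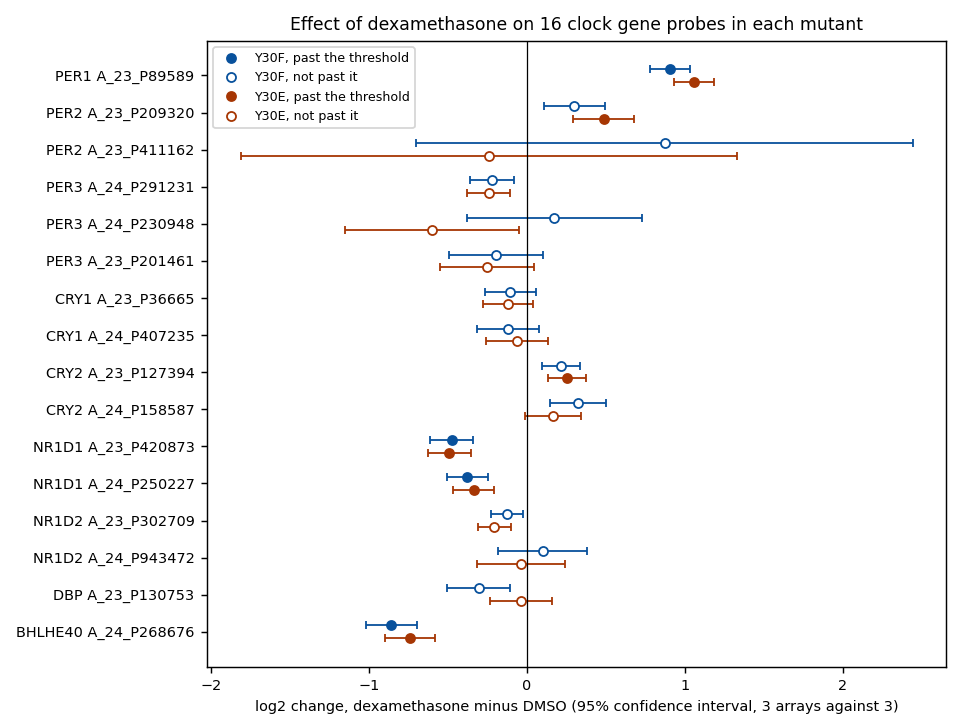
Effect of dexamethasone on each of the 16 tested clock probes in Y30F (blue) and Y30E (red), as the log2 difference from DMSO with its 95% confidence interval (x axis; 3 arrays against 3), filled where the adjusted p passed 0.05. PER1 lies near 1 in both mutants and BHLHE40 near -0.8, while the dim PER2 probe A_23_P411162 has the widest interval.

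Across the set, 9 of the 16 probes had dexamethasone and DMSO arrays that did not overlap, in the same direction in both mutants, where 4.76% of all tested probes did so. The 4 higher ones were those of PER1, the brighter PER2 probe and both tested CRY2 probes. The 5 lower ones were the brightest PER3 probe, both NR1D1 probes, the brighter NR1D2 probe and BHLHE40. Within slides, the dexamethasone arrays lay on 1 side of the DMSO arrays on each of the 3 slides for 9 of the 16 clock probes, where 7.55% of all probes with arrays to compare did so. These 9 were the probes just named without the dimmer CRY2 probe and with DBP in its place. The set was chosen with earlier results of these data known, so neither share over all probes tests it. On slide 2 the dexamethasone and DMSO arrays carried different mutants. Slide 2 minus the other slide of a group was -0.053 within Y30F-DEX and -0.052 within Y30E-DMSO for PER1. Over the brightest probes of the 9 genes these offsets ran from -0.09 (BHLHE40) to 0.17 (NR1D1) within Y30F-DEX and from -0.13 (CRY2) to 0.22 (CRY1) within Y30E-DMSO. For CRY1 and CRY2 they were not small beside the effects. The same held for PER3 within Y30F-DEX (0.11, beside a Y30F effect of -0.22). It also held for DBP within Y30E-DMSO (-0.063, beside a Y30E effect of -0.039). Over the 7 other tested probes the offsets ran from -0.48 (PER3 A_24_P230948) to 1.56 (PER2 A_23_P411162) and from -1.83 (PER2 A_23_P411162) to 0.23 (PER3 A_24_P230948).

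**Figure D3:**
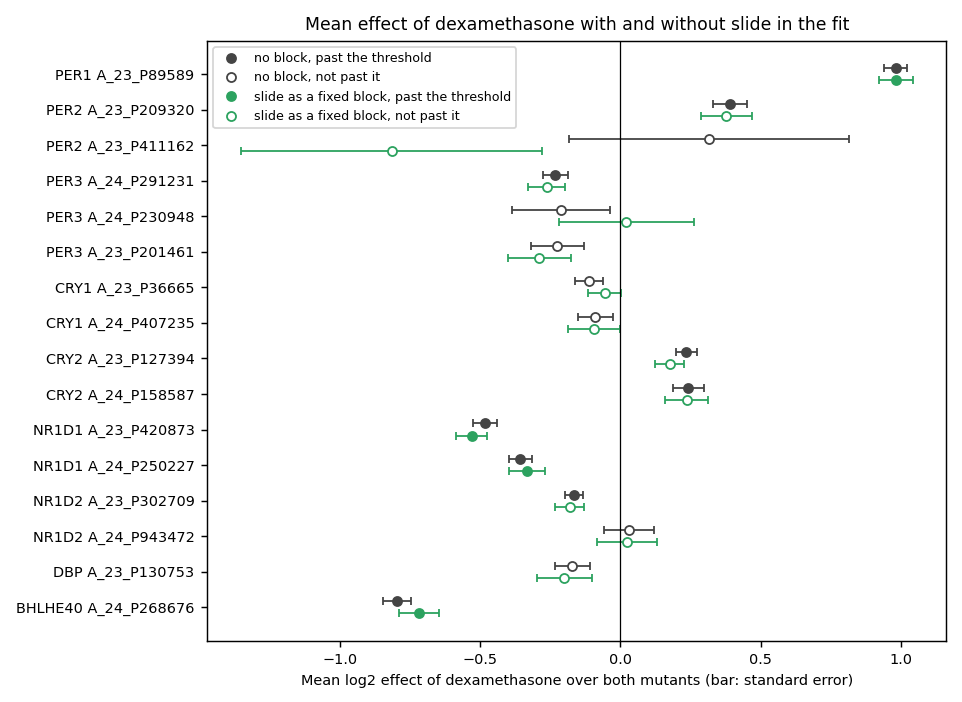
Mean effect of dexamethasone over both mutants on the 16 clock probes (x axis: log2 difference from DMSO, with its standard error) without a block (grey) and with slide as a fixed block (green), filled where the adjusted p passed 0.05. PER1, both NR1D1 probes and BHLHE40 keep their calls in the block fit, and PER2, PER3, CRY2 and NR1D2 are filled only without it.

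By role, in the mean effect without a block (2.51% of all probes higher, 1.06% lower), 2 of 3 period genes rose and 1 fell, 1 of 2 cryptochrome genes rose, and both REV-ERB genes fell by their brightest probes. With slide as a block (1.14% and 0.602% of all probes), the called genes were PER1 of the period genes, NR1D1 of the REV-ERB genes, no cryptochrome, and BHLHE40, the sole E-box binding repressor in the set. The D-box activator DBP gave no call in either fit. PER1 and NR1D1, both driven through E-box elements in the textbook loop, moved in opposite directions in both fits. ARNTL, the target of REV-ERB repression, was not analysed here.

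**Figure D4:**
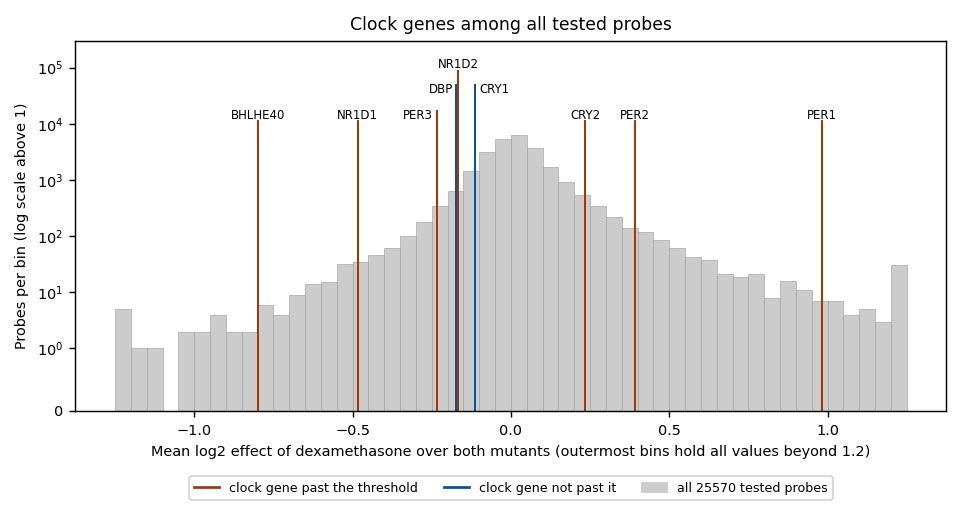
Mean effect of dexamethasone over both mutants for all 25570 tested probes (grey bars, in bins of log2 difference; the y axis is a log scale above 1) with the brightest tested probe of each of the 9 clock genes as a line. PER1 (0.98) and BHLHE40 (-0.80) lie in the thin tails, while CRY1 (-0.11), DBP (-0.17) and NR1D2 (-0.17) lie near the main body of probes.

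The series sets the mutants against each other, so the difference of the dexamethasone effects (Y30E minus Y30F) was tested for each clock probe. None of the 16 passed in limma, the smallest adjusted p was 0.465, and 0 clock probes had an unadjusted p under 0.05. Over all 25570 probes 0% were called, and 2777 had an unadjusted p under 0.05. With slide as a block 0.0899% of all probes were called and again no clock probe (smallest unadjusted p = 0.0482, for NR1D2 A_24_P943472 at -0.50, adjusted p = 0.999 in limma). The difference was 0.15 for PER1 (95% confidence interval -0.027 to 0.33), 0.12 for BHLHE40 (-0.11 to 0.35) and -0.017 for NR1D1 (-0.21 to 0.18). In the block fit these differences were 0.08, 0.16 and 0.12. The interval of PER1 without a block allows a response that is larger in Y30E by up to 0.33 on the log2 scale. For 14 of 16 probes the interval without a block lies within 1.5-fold in either direction. The block fit had a larger standard error of the difference for each of the 16, and no such count was made there. DBP had a difference of 0.27 (-0.014 to 0.55, adjusted p = 0.488 in limma). Its groups overlapped in Y30E alone, and over all probes 15.3% had no overlap in Y30F and 22.3% in Y30E. A test that misses the threshold does not show that the mutants act alike.

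No slide held both mutants under the same treatment, so mutant and slide are only partly separable in comparisons of the mutants. Under dexamethasone, none of the 16 clock probes differed between Y30E and Y30F in limma, where 0% of all probes did, and 5 clock probes had an unadjusted p under 0.05 (3460 over all probes). PER1 had the smallest of these, at 0.25 higher in Y30E (95% confidence interval 0.12 to 0.37, unadjusted p = 0.00137, adjusted p = 0.196 in limma). The rest of the 5 were both NR1D1 probes (0.14 and 0.20), DBP (0.25) and PER3 A_24_P230948 (-0.64). With slide as a block the PER1 difference was 0.21 ± 0.114 (unadjusted p = 0.0994 in limma), and no clock probe was called where 0.0939% of all probes were.

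Under DMSO, 0 clock probes were called in limma, where 0.00782% of all probes were, and 5 clock probes had an unadjusted p under 0.05 (3342 over all probes). BHLHE40 was the only one of these 5 with a lower value in Y30E, at -0.22 (95% confidence interval -0.38 to -0.063, adjusted p = 0.247 in limma). It became a call when arrays were centred on their median (-0.41, adjusted p = 0.048), a scaling that moved the median of all probes to -0.17 in this comparison. Relative to that shift the value was close to the main one. In the block fit it was -0.084 (adjusted p = 0.909). NR1D1 was 0.16 higher in Y30E by both probes (adjusted p = 0.314 and 0.299), and in the block fit its probes gave -0.002 and 0.22 (adjusted p = 0.986 and 0.774). The rest of the 5 were CRY2 A_24_P158587, 0.27 higher in Y30E, and NR1D2 A_24_P943472, 0.31 higher. The CRY2 probe had the smallest unadjusted p of the 5 (0.00641, adjusted p = 0.215 in limma). In the block fit these probes gave 0.17 and 0.48, with no call.

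The pattern of each called gene over the 12 arrays was set against those of 25521 probes with a value on every array, after each probe was centred on its own mean, as the root mean square difference in log2 units. The records nearest to PER1 were NM_001017535, at 0.0901, and NM_000238, at 0.105, with mean dexamethasone effects of 0.90 and 0.86. Nearest to BHLHE40 were NM_003897, at 0.0782, and NM_002506, at 0.101, with mean effects of -0.71 and -0.69. The scanner files do not pair these records with gene names. Among the clock genes, PER1 was nearest to PER2 (0.32) and CRY2 (0.382) and farthest from BHLHE40 (0.909). BHLHE40 was nearest to NR1D1 (0.25), and PER3 to NR1D2 (0.076). The arrays are shared by all these values, which describe likeness alone. They depend on the size of the changes as well as on their direction, so genes that change little lie close together.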

How the data were processed

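Total RNA was labelled with Cy3 and hybridised, 1 sample per array, to Agilent whole human genome arrays (4x44 format), per the labels' protocols. The deposited values are spot intensity, the green processed signal of Agilent Feature Extraction 12, per the file headers; it is background-subtracted and detrended, with no scaling from array to array. The series table the authors deposited held the same intensity values.

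From 43376 non-control spots per array, 89 to 154 outlier spots were left out (0 of clock probes). Signals were taken to log2, reduced by the array's 75th percentile, and averaged per probe (41000 probes). Probes entered the test when the flag for signal well above background was set for a share of 0.5 or more of their spots in all 3 arrays of some group. Tests were limma 3.58.1 (R 4.3.3) on 4 group means over 12 arrays (8 residual degrees of freedom), in 6 comparisons (dexamethasone against DMSO in Y30F and in Y30E, the mean and the difference of these, and Y30E against Y30F under either treatment). All probes of a record were tested, and the brightest stood for the gene. The scripts were tested on simulated data. Groups came from titles and descriptions; another label gives 1 construct per mutant (mCCRP-V5 for Y30F, FLAG-hGR for Y30E), while the descriptions give both for each sample. Genes named were all members plus the 5 probes nearest in pattern to each called member, of which 4 are printed. A wider list of clock genes and a list of cell type markers, both fixed by symbol, could not be matched to records and were not analysed here, and no sequence was used here. Members and lists were chosen with earlier results of these data known. Alternatives were other normalizations and background correction, filters, priors, blocks, subsets of arrays and leaving out each array; statmod 1.5.0 served the random slide block. The main fit did not pair samples by replicate number. Precision is limited by 3 arrays per group.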

Additional observations from a re-analysis of the deposited data

How the results depend on the processing

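Over 96 combinations of a clock probe and a comparison, 19 were called. Under alternatives, 2266 values gave 2175 on the same side of the threshold, 87 lost calls, 4 new calls and 0 reversed calls. The 2175 include combinations not called in the main fit that stayed uncalled. For the called combinations alone, the call was lost in 7 of 99 values in Y30F, 41 of 149 in Y30E and 39 of 214 in the mean. A further check of sign found 119 changes, all in values that were not called. PER1 kept its call in all 25 alternatives in Y30F, 25 in Y30E and 24 in the mean. BHLHE40 kept it in 25 of 25, 24 of 25 and 24 of 24, and the NR1D1 probe A_23_P420873 in 23 of 25, 24 of 25 and 24 of 24. The mean effect lost its call in 5 of 24 alternatives for PER2 and 3 of 24 for PER3. It lost it in 4 of 24 for CRY2 A_23_P127394, 18 of 23 for CRY2 A_24_P158587 and 8 of 24 for NR1D2. The alternatives share arrays, and many leave an estimate unchanged, so these tallies do not count separate checks. The PER1 effect in Y30F, for example, stayed at 0.906 whichever Y30E array was left out. It was 0.942 with slide as a fixed block, with the arrays of 1 slide and without slide 2.

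The number of clock probes called in Y30F (4) was 2 with the compared groups alone and 2 without slide 2, an alternative added after seeing the data, and 4 to 5 when each array was left out. In Y30E (6) it was 3 with normexp correction, 3 with slide as a fixed block, 3 with the arrays of 1 slide, 1 without slide 2, and 3 to 6 when each array was left out, with 3 reached without Y30E-DMSO replicate 1 or 2 or Y30E-DEX replicate 1 or 2. In the mean (9) it was 4 with slide as a fixed block, 4 with the arrays of 1 slide, 3 without slide 2, and 7 to 9 when each array was left out. For Y30E minus Y30F under DMSO (0) it was 1 with median centring, and 0 when each array was left out. The other 2 comparisons had 0 calls in every alternative run. The fits with a block, 1 slide, fewer groups or fewer arrays had fewer arrays or residual degrees of freedom. With slide as a fixed block the estimates moved as well. The cause of these changes in number was not tested. The random slide block had a consensus correlation of 0.025. Median centring moved the median effect of all probes from 0.019 to -0.11 in Y30F and from -0.019 to 0.16 in the difference of effects. With the replicate number as a block, 4, 6 and 8 clock probes were called in Y30F, Y30E and the mean, where CRY2 A_24_P158587 lost its call (adjusted p = 0.057). Within a mutant, deviations of same-numbered DMSO and DEX samples from their group means had correlations of -0.038 to 0.032. Those of differently numbered samples ran from -0.147 to 0.137. With 3 arrays per group these values cannot show whether the numbers pair samples. The PER2 probe A_23_P411162 was well above background on 9 of 12 arrays and the PER3 probe A_23_P201461 on 11 of 12, with signals of 15.4 to 108 and 21.3 to 38.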
